A study of Mus musculus with 14 samples.

Results

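The 10 genes described here encode the transcription factor ATF4 and proteins that act with it or downstream of it in the integrated stress response: Atf4, Atf5, Ddit3, Trib3, Chac1, Asns, Ppp1r15a, Nupr1, Cebpb and Fgf21. They were taken by symbol from the 37310 Ensembl gene identifiers of the count tables, and each matched 1 identifier. Total RNA of mice was sequenced, either from β-cells, which secrete insulin in the pancreas, or from whole islets, where β-cells sit among other hormone cells, vessels, stroma and leukocytes. In the first table, wild-type β-cells at postnatal day 6 (neonatal, n = 3) stand beside wild-type β-cells at day 45 (adult, n = 3). In the second, whole islets labelled TSC1 KO (n = 2) stand beside control islets with the prefix RC (n = 2), both from mice 8 weeks old. The series' design text calls this knockout βTSC1 KO. TSC1 is a brake on the growth kinase complex mTORC1. The driver of the deletion, the exons it removes and the meaning of RC are unstated in these sources. In the third, whole islets labelled Db (n = 2) stand beside control islets with the prefix BKS (n = 2), both from mice 4 weeks old. The name db is commonly used for mice with a mutant leptin receptor, which the labels do not spell out. C57BL/6 is the strain stated for the libraries of all 6 groups. Whether animals were pooled, whether the libraries of a group came from separate animals and how the β-cells were obtained are not given in the sources used here, and every p-value below rests on the scatter of these libraries alone, which may be technical.

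In the integrated stress response, kinases that sense amino acid shortage, misfolded protein in the endoplasmic reticulum, haem shortage or double-stranded RNA phosphorylate the translation factor eIF2. Most protein synthesis then slows, while the Atf4 mRNA is translated better, because short open reading frames ahead of its coding sequence are bypassed. ATF4 protein pairs with C/EBP family proteins on composite DNA elements and raises transcription of genes for amino acid supply, tRNA charging, redox balance and, under lasting stress, cell death. β-cells make large amounts of proinsulin, and loss of the eIF2 kinase PERK causes diabetes in mice and people. Because ATF4 is controlled to a large part at translation, its mRNA level is not a measure of its protein.

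Values are CPM, the usual scaling of gene counts to library size, with TMM factors within the gene's own table. They are comparable between libraries of a table and not between tables. Each comparison was tested within its table with edgeR's quasi-likelihood F test, two-sided. P-values were adjusted by Benjamini-Hochberg across every gene of the fit, and a gene is called higher or lower at an adjusted p under 0.05. Changes are log2 fold changes ± SE. For edgeR the SE was derived from the test, as the size of the unshrunken change over the square root of F. The 95% intervals use it. Libraries held between 3507929 and 17688772 gene counts, fewest in TSC1 KO, where 3 counts, taken as the floor, correspond to 0.683 and 0.855 CPM before TMM scaling. Tsc1 itself read 31.0 and 34.5 CPM in TSC1 KO against 25.1 and 54.1 CPM in RC control islets (-0.28 ± 0.38, adjusted p = 0.638), so its gene-level count did not separate the groups. TSC1 KO below means the islets that carry that label.

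The make-up of the libraries differed between groups, most of all in the second table. Summed over 10 β-cell markers, all with counts, the share of gene counts was 1.14% and 1.26% in TSC1 KO against 25.5% to 29.1% in RC control islets, and 9 of the 10 were called lower. Mitochondrially encoded protein genes took 39.3% and 46.2% of TSC1 KO counts against 12.1% and 8.92% in RC control. Stomach mucosa genes, 4 of 8 with counts and Gkn1, Gkn2, Tff1 and Muc5ac at 0, summed to 0.0186% to 0.0273% in TSC1 KO and 0.00119% to 0.00214% in RC control. Duct markers, 8 of 8 with counts, summed to 0.218% to 0.256% against 0.0332% to 0.109%. Other islet endocrine markers, 9 of 9 with counts, summed to 0.249% to 0.735% in TSC1 KO against 2.96% to 3.565% in RC control. Of the 8 tested, 5 were called lower and 1 higher. Mesenchymal markers, 9 of 9 with counts, summed to 0.1305% and 0.429% in TSC1 KO replicates 1 and 2 against 0.105% to 0.139% in RC control. In the third table, β-cell markers summed to 49.9% to 53.0% in Db and 62.1% to 70.9% in BKS control islets. Of these 10, 7 were called lower and 1 higher. Duct markers summed to 0.0852% to 0.0879% in Db against 0.0232% to 0.0316% in BKS control, with 3 of 7 tested called higher and 2 lower. Mesenchymal markers summed to 0.0623% to 0.0635% against 0.0297% to 0.0303%, with 5 of 8 called higher and 1 lower. Other islet endocrine markers summed to 0.890% to 1.07% against 0.401% to 0.586%, with 1 of 8 called higher and 1 lower. The 13 acinar markers summed to 0.0267% to 0.0409% in Db, none at 0, and to 0.00586% to 0.00737% in BKS control, with Ptf1a at 0. In β-cells, 10 β-cell markers summed to 2.61% to 3.54% in neonatal and 5.42% to 8.38% in adult libraries, and the 8 endothelial markers summed to at most 0.00298%, with Tie1 and Emcn at 0 in neonatal libraries. Fewer cells of a type and less RNA per cell cannot be told apart in bulk RNA. The part of these differences in the results below was not tested.

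Promoter letters are shown first, since 5 of the 10 genes carry the short DNA element that ATF4 and its C/EBP partners bind. The core searched was TGATGNAA on either strand, in RefSeq windows from 250 bases before to 50 bases after the annotated start, build GRCm38.p6. All 10 genes had a window. Chac1, Trib3, Asns, Nupr1 and Fgf21 held the core, against 4.51% of 27025 genes with a window. The stricter TGATGCAA, a subset of the first, was in Chac1, Nupr1 and Fgf21 and in 1.03% of all these genes. Capitals mark the core, and in all but Asns it lies on the opposite strand and reads reversed. The stretches are Chac1 chr2:119351013-119351092 on the plus strand and, on the minus strand, Asns chr6:7693210-7693289, Nupr1 chr7:126625537-126625616, Fgf21 chr7:45615586-45615665 and Trib3 chr2:152344028-152344057. 
Chac1: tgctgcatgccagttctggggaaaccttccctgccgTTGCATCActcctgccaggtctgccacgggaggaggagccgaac
Asns: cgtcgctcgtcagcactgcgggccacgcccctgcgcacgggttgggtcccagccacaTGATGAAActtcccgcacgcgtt
Nupr1: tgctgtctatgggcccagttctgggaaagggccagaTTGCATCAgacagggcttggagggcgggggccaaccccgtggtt
Fgf21: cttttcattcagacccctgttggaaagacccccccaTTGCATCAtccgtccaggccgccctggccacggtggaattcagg
Trib3: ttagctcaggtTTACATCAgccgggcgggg
The core sits 193 to 186 bases before the start in Chac1, 139 to 132 in Fgf21, 110 to 103 in Nupr1 and 23 to 16 in Asns, and at bases 15 to 22 after it in Trib3. The windows of Atf4, Atf5, Ddit3, Ppp1r15a and Cebpb held no match to these letters. Among the other lists described below, the core was in 5 of 8 windows of aminoacyl-tRNA synthetase genes, 3 of 16 of amino acid genes, 0 of 13 of the ATF6 and XBP1 branch and 0 of 14 of immediate early genes. A match describes the letters of a window and is not evidence of binding.

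Levels between genes can be compared only per length, and per kilobase of the longest annotated transcript Atf4 was the most abundant of the 10 in 5 of the 6 groups. In adult β-cells the order was Atf4 at 184 ± 6.02 CPM per kilobase (SD, n = 3), Atf5 at 108 ± 16.4, Asns at 66.8 ± 6.89, Ppp1r15a at 60.6 ± 10.2, Ddit3 at 31.4 ± 9.43, Chac1 at 16.8 ± 2.67, Cebpb at 11.2 ± 3.82, Nupr1 at 5.73 ± 4.12 and Trib3 at 3.30 ± 0.940. Asns and Ppp1r15a did not differ there beyond their spread, and neither did Chac1 and Cebpb nor Nupr1 and Trib3, whose ranges met or lay within 1 SD of each other. In neonatal β-cells Atf4 stood at 226 ± 61.5 and Ddit3, Atf5, Ppp1r15a and Asns followed between 68.0 and 72.5, with SDs of 35.1 to 40.6, so these 4 had no order. In RC control islets Atf4 (161 ± 16.0, n = 2) was followed by Ddit3 at 109.9 ± 67.6 and Ppp1r15a at 85.7 ± 38.5. In TSC1 KO islets Atf4 (89.1 ± 5.10) and Ppp1r15a (86.4 ± 7.02) lay within their spread of each other, and Cebpb at 38.6 ± 4.96 came before Ddit3 at 22.7 ± 0.121. BKS control islets were the exception, with Atf5 at 134.5 ± 48.1 ahead of Atf4 at 78.0 ± 19.9. In Db islets Atf4 (99.97 ± 2.49) was first again and Atf5 followed at 68.9 ± 12.03.

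**Figure D1:**
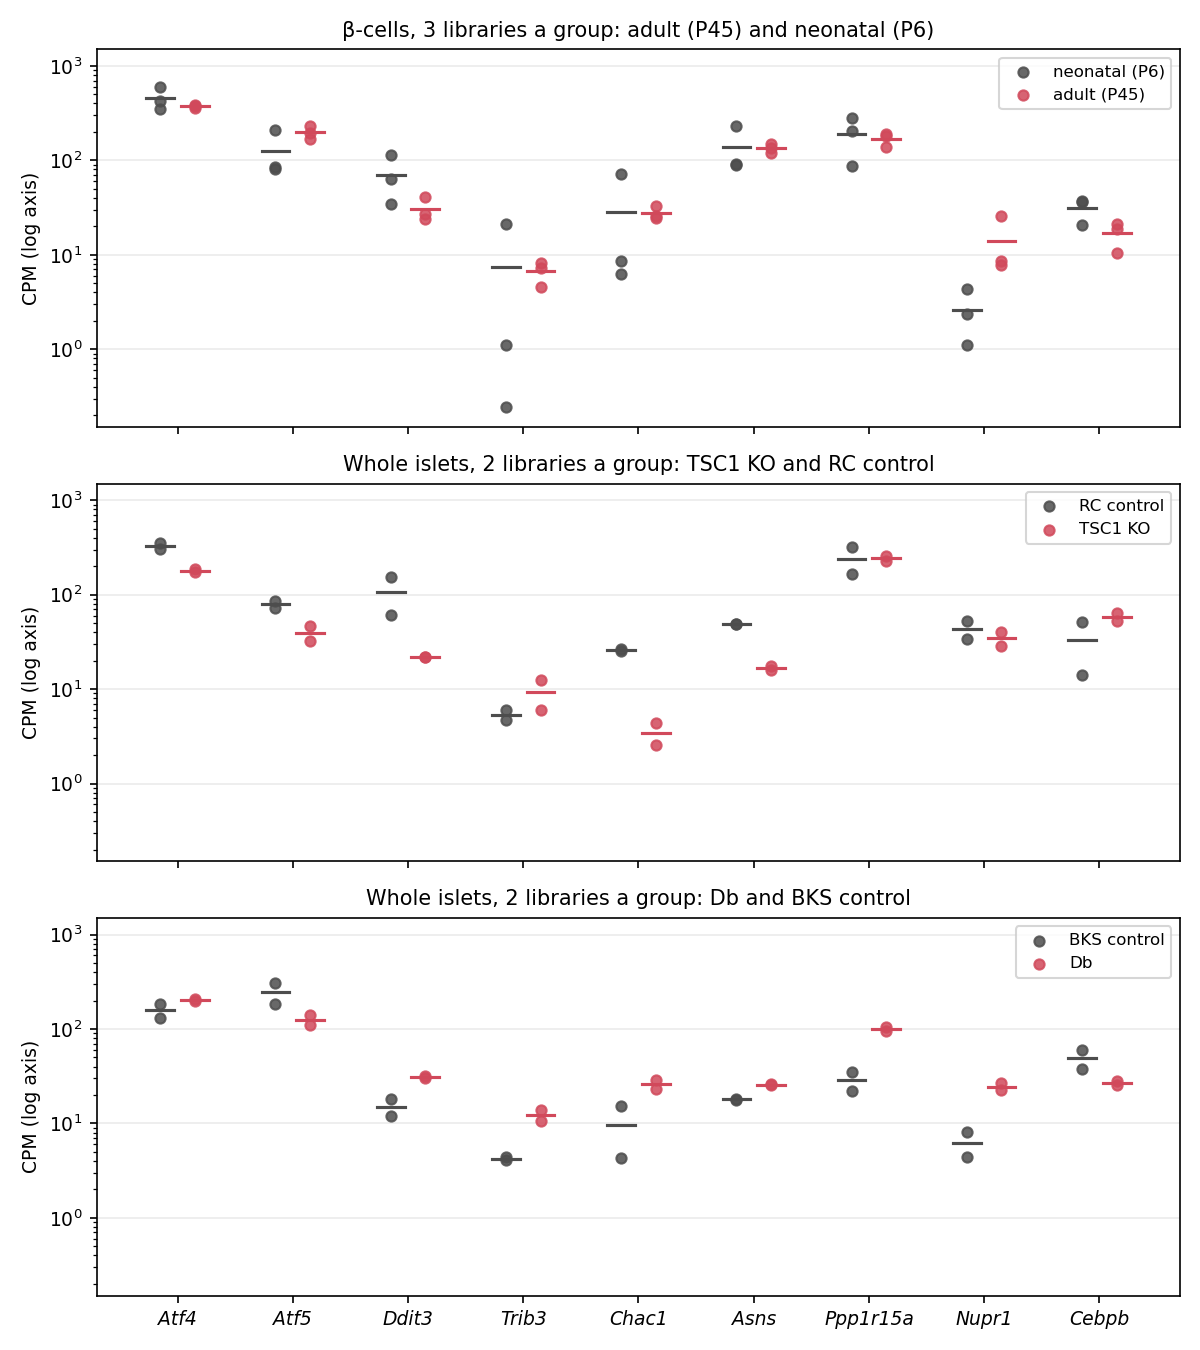
CPM on a log axis of 9 genes in each library (points) with the group mean (bar), one panel for each table; Fgf21 is left out because most libraries hold none. A reader sees the wide neonatal spread of Trib3 and Chac1 in β-cells, and Chac1 and Asns at 2.56 to 17.7 CPM in TSC1 KO against 25.45 to 49.0 CPM in RC control islets.

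The comparison of adult with neonatal β-cells asks how the genes stand before and after the cells mature. Of the 10, 9 passed the filter on low counts and 1, Nupr1, was called, higher in adult cells. Of all 14304 genes tested, 6.98% were called, 3.38% higher and 3.60% lower. The median change of the 9 was -0.15, beside -0.03 over all genes tested. The ranges of the groups did not overlap for 1 of the 9, beside 27.4% of all genes.

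Nupr1, a small nuclear protein induced by many stresses, read 25.7, 7.85 and 8.56 CPM in adult and 1.11, 2.35 and 4.32 CPM in neonatal replicates 1, 3a and 3b. Every adult library was above every neonatal one, with adult replicate 1 far above the others. The fitted change was 2.43 ± 0.71 (edgeR adjusted p = 0.0489). Without adult replicate 1 it was 1.66 and no longer passed (edgeR adjusted p = 0.490). The call was also lost without adult replicate 2, adult replicate 3 or neonatal replicate 1, at edgeR adjusted p-values of 0.0720, 0.0826 and 0.124. Over 12 alternatives the adjusted p ran from 0.0100 to 0.490.

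Ddit3 encodes CHOP, a transcription factor that promotes cell death under lasting stress in the endoplasmic reticulum. It read 40.9, 26.8 and 23.8 CPM in adult and 112, 63.5 and 34.7 CPM in neonatal libraries, where adult replicate 1 lay above the lowest neonatal value. The fitted change, -1.20 ± 0.37, did not pass (edgeR adjusted p = 0.0692). DESeq2 called it, at an adjusted p of 0.0198, as did edgeR with library size as the scaling (adjusted p = 0.0309) or without neonatal replicate 3b (-1.53, adjusted p = 0.00961). Over its 12 alternatives the adjusted p ran from 0.00079 to 0.281.

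Trib3, Chac1 and Asns differed more among neonatal libraries than between the ages. Trib3, a pseudokinase that restrains AKT signalling and is a classic target of ATF4 and CHOP, had 17, 311 and 4 counts in neonatal replicates 1, 3a and 3b, or 1.11, 20.9 and 0.243 CPM. The neonatal extremes stood 85.9 times apart, and the adult libraries, at 8.23, 7.28 and 4.56 CPM, lay between them. Chac1, an enzyme that degrades glutathione, read 6.24, 70.8 and 8.58 CPM in neonatal and 32.5, 24.3 and 25.8 CPM in adult libraries. Asns, which makes asparagine from aspartate, read 89.0, 231 and 91.6 CPM in neonatal and 148, 136 and 120.1 CPM in adult libraries. For each of the 3 genes the adult values lay between neonatal replicate 3a above and the other 2 neonatal replicates below. Their fitted changes, -0.15 ± 1.17, -0.05 ± 0.91 and -0.03 ± 0.33, had edgeR adjusted p-values of 0.968, 0.988 and 0.982.

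Atf5, a relative of ATF4 that is also translated under stress and supports survival of β-cells, showed the same arrangement in part. It read 80.9, 210 and 85.1 CPM in neonatal replicates 1, 3a and 3b and 228, 194 and 169 CPM in adult libraries (0.65 ± 0.34, edgeR adjusted p = 0.322). Atf4 read 421, 593 and 352 CPM in neonatal and 384, 359.8 and 372 CPM in adult libraries, which lay inside the neonatal range (-0.29 ± 0.18, edgeR adjusted p = 0.399). Ppp1r15a, also called GADD34, the phosphatase subunit that reverses eIF2 phosphorylation, ran the other way in neonatal replicate 3a. It read 283, 87.3 and 205 CPM in neonatal and 138, 192 and 181 CPM in adult libraries (-0.17 ± 0.37, edgeR adjusted p = 0.863). Cebpb, a C/EBP factor that can pair with ATF4, read 37.5, 36.4 and 20.75 CPM in neonatal and 21.4, 18.8 and 10.4 CPM in adult libraries, with 1 adult value just above the lowest neonatal one (-0.90 ± 0.37, edgeR adjusted p = 0.175). Fgf21, a secreted hormone of fasting and stress, had 0 counts in each of the 6 libraries.

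Neonatal replicate 3a also stood apart in the wider ATF4 programme. In 20 amino acid and one-carbon genes listed as ATF4 targets, the median log2(CPM + 1) relative to the table mean was 0.79 in replicate 3a, -0.22 in replicate 1 and -0.45 in replicate 3b, and 14 of the 20 had their highest value of the 6 libraries in 3a. Of 12 aminoacyl-tRNA synthetase genes, 11 were highest in 3a. In the other pathway lists this held for 7 of 13 other ATF4 targets, 6 of 16 eIF2 machinery genes and 3 of 8 bZIP partners. It also held for 5 of 16 genes of the ATF6 and XBP1 branch, 1 of 6 genes tied to CHOP and 1 of 16 immediate early genes. The share of all genes highest in 3a was not computed, so these counts have no background beside them. Phgdh, the first enzyme of serine synthesis, read 47.1 CPM there, 8.26 and 8.76 CPM in the other neonatal libraries and 15.7 to 21.1 CPM in adults. Slc7a5, a transporter of large neutral amino acids, read 286 CPM there and 119 to 141 CPM in the other neonatal libraries. Immediate early genes, which respond quickly to handling of cells, summed to 0.0757% of counts in replicate 3a against 0.589% and 0.611% in the other neonatal libraries and 0.118% to 0.204% in adults. Depth, at 14166621 gene counts, and the insulin share, at 2.36%, lay near those of the other neonatal libraries. Over 10 β-cell markers, though, the median relative to the table mean was -0.58 in 3a, -0.07 in replicate 1 and -0.30 in replicate 3b. Slc2a2 read 241 CPM in 3a against 621 and 616 CPM, while Pdx1 was highest there, at 567 against 433 and 478 CPM. Other measures set 3a apart from the other neonatal libraries. Reads that were not aligned made up 26.0% in 3a against 14.9% and 15.1%, and reads of low alignment quality 3.56% against 10.45% and 9.91%. In adult replicates 1, 2 and 3 these were 19.2%, 23.75% and 53.6%, and 8.99%, 15.3% and 3.12%. On both read measures 3a thus lay inside the adult range, and adult replicate 3 was the most extreme library. The 8 duct markers summed to 0.0812% against 0.0532% and 0.0514%, with Krt19 at 35.2 CPM against 4.42 and 2.56 CPM. The part of these measures and of immediate early genes in the pattern was not tested. With replicate 3a left out, Atf5 (1.25 ± 0.18, edgeR adjusted p = 6.32e-05), Chac1 (1.89 ± 0.42, edgeR adjusted p = 0.00427) and Nupr1 were called higher in adult cells. Trib3 (3.30 ± 1.157) and Asns (0.58 ± 0.19) then had edgeR adjusted p-values of 0.0747 and 0.0528. Over 12 alternatives the adjusted p ran from 6.32e-05 to 0.63 for Atf5 and from 0.00427 to 0.999 for Chac1.

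**Figure D2:**
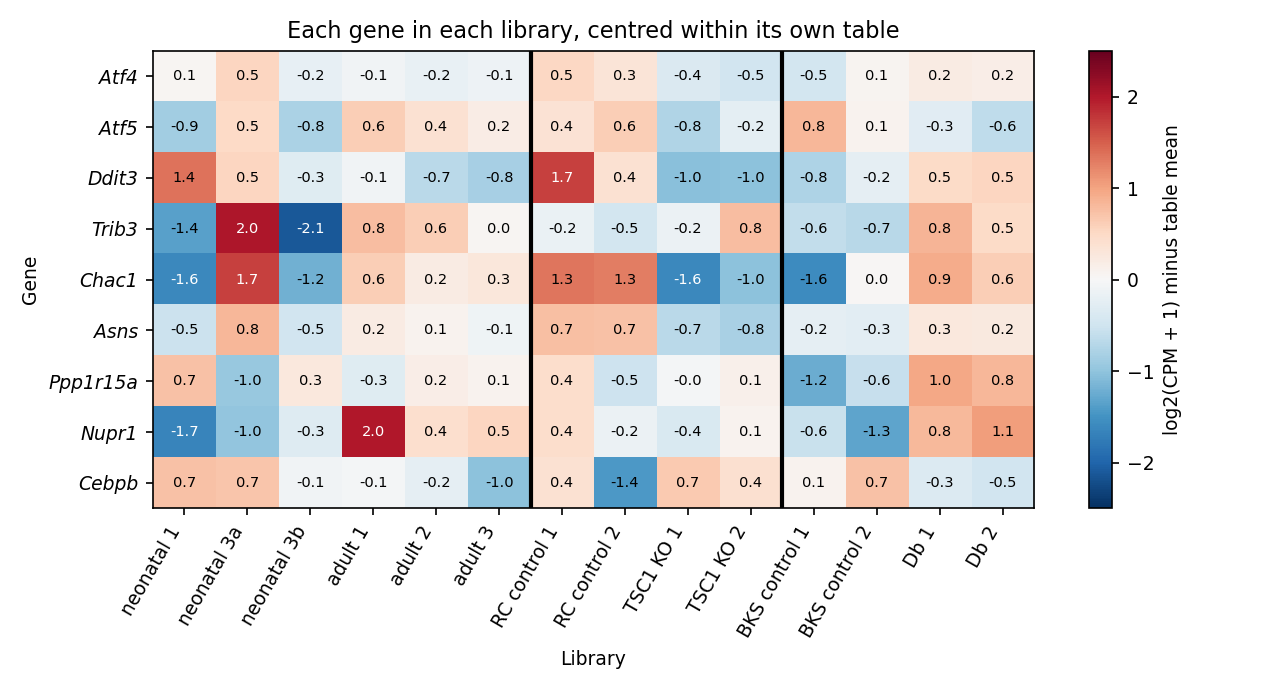
Each of 9 genes (rows) in each of 14 libraries (columns) as log2(CPM + 1) minus the mean of the gene in its own table; red is above and blue below that mean, and black lines part the tables. Neonatal 3a is above the mean for Trib3, Chac1, Asns, Cebpb, Ddit3, Atf4 and Atf5 and below it for Ppp1r15a and Nupr1. Cebpb and Ddit3 are higher still in neonatal 1, and Nupr1 is below the mean in every neonatal library and lowest in neonatal 1.

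Calls in the other lists between the ages stand beside the 6.98% of all genes tested that were called. Of the 20 amino acid genes and the 12 tRNA synthetase genes, edgeR called 0. At an unadjusted p under 0.05 there were 5 and 0, DESeq2 called 1 and 0, and limma-voom called 2 and 0. Without replicate 3a the medians of the lists turned from -0.35 to 0.32 and from -0.03 to 0.40, with 1 of 21 and 3 of 12 genes called higher. Immediate early genes had a median of -1.35 with 1 of 16 called lower, and 7 of 16 without replicate 3a. Of 13 other ATF4 targets, 1 fell, Sesn2 (-0.88 ± 0.25, edgeR adjusted p = 0.0469), a stress-induced inhibitor of mTORC1. Of 16 genes of the eIF2 kinases and eIF2 machinery, Eif2s3x, a subunit of eIF2, rose (1.44 ± 0.40, edgeR adjusted p = 0.0413). It read 15.6, 36.55 and 44.1 CPM in adult and 13.7, 10.4 and 11.4 CPM in neonatal libraries. Adult replicate 1 thus lay near the neonatal values. Ppp1r15b, the constitutive partner of the eIF2 phosphatase, fell (-1.10 ± 0.21, edgeR adjusted p = 0.00446). None of the eIF2 kinase genes passed: Eif2ak1, Eif2ak2, Eif2ak3 and Eif2ak4 changed by 0.23, -0.10, -0.30 and -0.19 at edgeR adjusted p-values of 0.399 to 0.91. Of 6 tested genes tied to CHOP in cell death and oxidative folding, Ero1b, an oxidase of proinsulin folding, rose (1.22 ± 0.14, edgeR adjusted p = 4.56e-05). Of 16 genes of the ATF6 and XBP1 branch, which enlarges folding capacity, Ern1 rose (0.80 ± 0.19, edgeR adjusted p = 0.0206) and Creld2 (-0.99 ± 0.22) and Pdia4 (-0.56 ± 0.14) fell (edgeR adjusted p = 0.0134 and 0.0245).

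**Figure D3:**
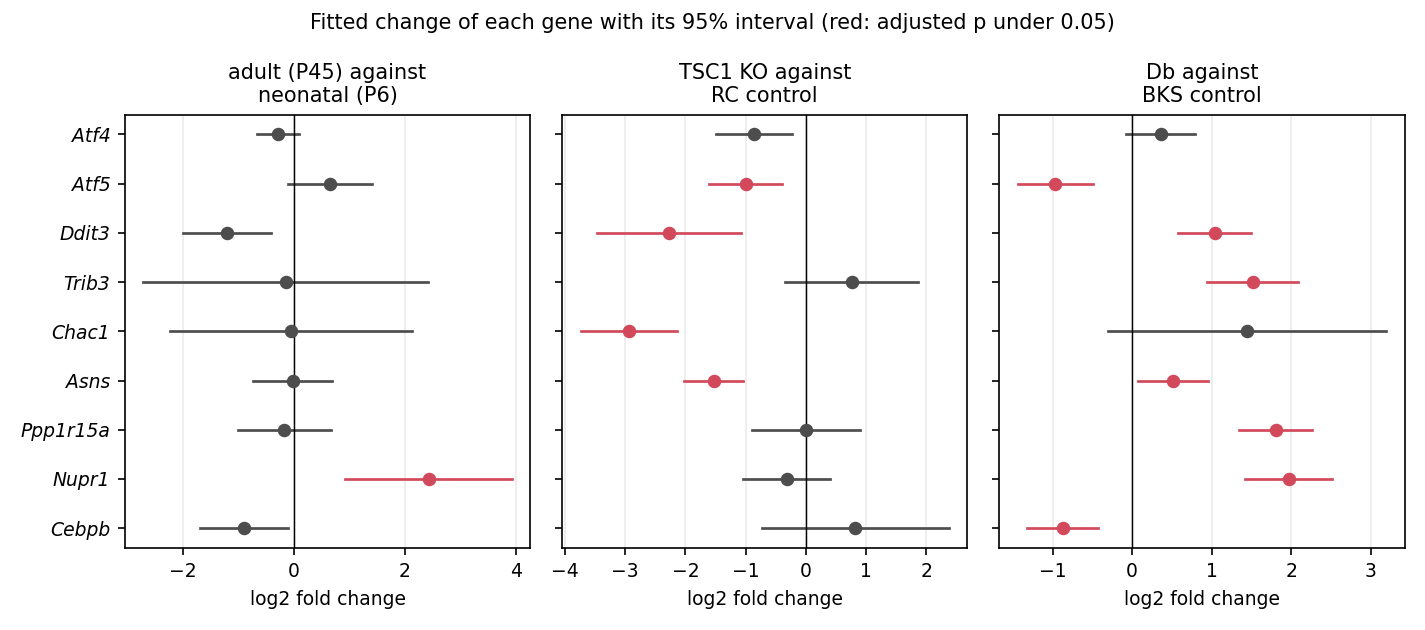
Fitted log2 fold change of each tested gene with its 95% interval in the 3 comparisons; red marks an adjusted p under 0.05 and the horizontal scales differ between panels. The adult panel has 1 red gene, the TSC1 KO panel 4 below 0, and the Db panel 5 above and 2 below 0.

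The comparison of TSC1 KO with RC control islets addresses islets labelled as lacking a gene that restrains mTORC1, whose activity these counts do not measure. Chac1, Ddit3, Asns and Atf5 were lower in TSC1 KO, by between 2.00 and 7.66 times. Of 14515 genes tested, 18.6% were called, 10.0% lower and 8.63% higher, against these 4 of 9, all lower. The median change of the 9 was -0.86, beside -0.0031 over all genes tested. Groups did not overlap for 7 of the 9, with 5 below and 2 above, beside 67.7% of all genes, 34.0% below and 33.6% above. With either TSC1 KO library left out, 0 of the 9 and 0 of all genes were called by edgeR, with 3535 and 3061 genes at an unadjusted p under 0.05. DESeq2 then called 2 of the 9 and 844 or 555 genes.

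Chac1 read 2.56 and 4.35 CPM in TSC1 KO, from 11 and 13 counts, and 26.4 and 25.45 CPM in RC control islets. Each knockout library was far below both controls, and the change was -2.94 ± 0.33 (edgeR adjusted p = 0.0109). Ddit3 read 21.9 and 22.1 CPM in TSC1 KO and 153 and 60.2 CPM in RC control (-2.27 ± 0.48, edgeR adjusted p = 0.0338). Its controls were 2.54 times apart and its knockout libraries nearly equal, and the change was -1.45 without RC control replicate 1 and -2.80 without RC control replicate 2. Asns read 17.7 and 16.05 CPM in TSC1 KO and 49.0 and 48.9 CPM in RC control, with close values within each group (-1.53 ± 0.20, edgeR adjusted p = 0.0124). Atf5 read 32.4 and 46.8 CPM in TSC1 KO and 71.9 and 85.9 CPM in RC control (-1 ± 0.25, edgeR adjusted p = 0.0422), with both knockout values below both controls. This call was lost without RC control replicate 2 (edgeR adjusted p = 0.0537) and under the replicate block (edgeR adjusted p = 0.0515), and over 15 alternatives the adjusted p ran from 0.00939 to 0.641.

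Atf4 itself read 187 and 173 CPM in TSC1 KO and 348 and 303 CPM in RC control. The groups did not overlap, yet the change of -0.86 ± 0.26 did not pass (edgeR adjusted p = 0.0683). DESeq2 and limma-voom called it lower, at adjusted p-values of 0.0184 and 0.0489, as did edgeR without RC control replicate 2 (-0.96, adjusted p = 0.0317). Over 15 alternatives the adjusted p ran from 0.0184 to 0.483. Not every ATF4 effector was lower. Trib3 read 6.06 and 12.4 CPM in TSC1 KO and 6.00 and 4.71 CPM in RC control (0.76 ± 0.45, edgeR adjusted p = 0.273), and the lower knockout value was almost that of the higher control. Ppp1r15a read 229 and 256.5 CPM in TSC1 KO, between its RC control values of 317 and 164 (0.01 ± 0.37, edgeR adjusted p = 0.986), with a 95% interval from -0.89 to 0.91. Nupr1 read 28.7 and 40.5 CPM in TSC1 KO and 52.0 and 34.0 CPM in RC control (-0.32 ± 0.29, edgeR adjusted p = 0.473), and these groups overlap. Cebpb read 63.4 and 52.8 CPM in TSC1 KO and 51.8 and 14.1 CPM in RC control (0.82 ± 0.60, edgeR adjusted p = 0.383). Without RC control replicate 1 the Cebpb change was 2.04 and passed (edgeR adjusted p = 0.00191), in a range from 0.000854 to 0.946 over 15 alternatives. Fgf21 had 0 and 0 counts in TSC1 KO and 2 and 3 in RC control islets, at or under the floor.

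The wider programme split in the same islets. Of 19 tested amino acid and one-carbon genes, 6 fell and 2 rose, with a median of -0.60. Those that fell included Slc7a5 (-2.49 ± 0.28), the proline enzyme Pycr1 (-2.40 ± 0.33), Cbs of the transsulfuration pathway (-2.25 ± 0.43) and Mthfd1l of mitochondrial folate metabolism (-2.20 ± 0.34), at edgeR adjusted p-values of 0.0109 to 0.0268. Pycr1 read 3.73 and 4.35 CPM in TSC1 KO against 17.7 and 24.7 CPM in RC control. Those that rose were Gpt2, a mitochondrial alanine aminotransferase (2.30 ± 0.41, edgeR adjusted p = 0.0223), and Slc1a5, a glutamine transporter (1.41 ± 0.23, edgeR adjusted p = 0.0172). Of 12 aminoacyl-tRNA synthetase genes, 5 fell and 0 rose. Cars1 changed by -1.74 ± 0.25, Mars1 by -1.05 ± 0.22, Sars1 by -0.92 ± 0.23 and Gars1 by -0.89 ± 0.19 (edgeR adjusted p = 0.0135 to 0.0438), and 2 of the 12 were lower under the replicate block. Of 13 other targets, Pck2, the mitochondrial enzyme that makes phosphoenolpyruvate, fell (-0.80 ± 0.20, edgeR adjusted p = 0.0418). Stc2, a secreted glycoprotein induced by stress in the endoplasmic reticulum, rose from 5 and 2 counts in RC control to 54 and 39 in TSC1 KO (edgeR adjusted p = 0.0109), with no fold given as the controls are near the floor.

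The ATF6 and XBP1 branch was lower more widely, with 12 of 16 genes called lower, 0 higher and a median of -1.61. The count was 8 under the replicate block. Derl3, a part of quality control in the endoplasmic reticulum, had 5 and 2 counts in TSC1 KO against 159 and 209 in RC control, near the floor, so no fold is given. Among the other genes called were Sdf2l1 (-3.75 ± 0.24, from 29 and 15 counts in TSC1 KO), Manf (-2.46 ± 0.23) and the chaperone gene Hyou1 (-2.14 ± 0.31), and the 4 genes had edgeR adjusted p-values of 0.0105 to 0.0145. Of all genes tested in this comparison, 10.0% were called lower and 8.63% higher. Of 16 genes of the eIF2 machinery, 1 fell, Dnajc3 (-1.07 ± 0.23, edgeR adjusted p = 0.0314), an inhibitor of the eIF2 kinases. Among these kinases, Eif2ak2 changed by 1.06 ± 0.28 (edgeR adjusted p = 0.0508) and Eif2ak1, Eif2ak3 and Eif2ak4 by 0.21, 0.33 and 0.37 (edgeR adjusted p = 0.328 to 0.476). Among 9 bZIP partners of ATF4, Nfe2l2 rose (1.51 ± 0.22, edgeR adjusted p = 0.0147) and Mafg fell (-1.03 ± 0.27, edgeR adjusted p = 0.0483). Of 7 genes tied to CHOP, Bcl2 (1.08 ± 0.29) and Tnfrsf10b (0.92 ± 0.21) rose and Ero1b fell (-3.00 ± 0.38), at edgeR adjusted p-values of 0.0487, 0.0358 and 0.0118. With library size as the scaling, with DESeq2 or under the replicate block, 0 of the 7 were higher and 1 was lower. These lists stand beside the β-cell marker shares given above, 1.14% and 1.26% against 25.5% to 29.1%, and beside immediate early genes at 1.42% to 1.45% in TSC1 KO against 0.708% to 1.25% in RC control, whose part was not tested.

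The comparison of Db with BKS control islets asks how the genes stand at 4 weeks of age in islets labelled Db. Nupr1, Ppp1r15a, Trib3, Ddit3 and Asns were higher in Db, by between 1.43 and 3.91 times, and Atf5 and Cebpb were lower. These were 7 of 9, in a comparison where 48.2% of 14369 genes were called, 24.3% higher and 23.9% lower. The median change of the 9 was 1.04, beside -0.03 over all genes tested. Groups did not overlap for 9 of the 9, with 7 above and 2 below, beside 74.7% of all genes, 37.2% above and 37.5% below. With library size as the scaling the median of all genes moved to 0.29, 6 members were called higher and 0 lower, and Atf5 and Cebpb did not pass (adjusted p = 0.0949 and 0.194).

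Ppp1r15a read 104 and 94.8 CPM in Db and 21.9 and 35.3 CPM in BKS control islets. Both Db libraries were far above either control, and the change was 1.81 ± 0.22 (edgeR adjusted p = 3.20e-07). Nupr1 read 22.5 and 26.6 CPM in Db and 8.03 and 4.36 CPM in BKS control (1.97 ± 0.26, edgeR adjusted p = 1.16e-06). Trib3 read 13.9 and 10.5 CPM in Db and 4.39 and 4.11 CPM in BKS control, from 32 to 251 counts (1.52 ± 0.28, edgeR adjusted p = 7.81e-05). Ddit3 read 30.2 and 31.5 CPM in Db and 12.1 and 18.1 CPM in BKS control (1.04 ± 0.23, edgeR adjusted p = 0.00048). For these 4 genes the Db libraries were close to each other and clear of both controls. Nupr1 and Ppp1r15a kept their call under 15 of 15 alternatives and Trib3 under 14, with adjusted p-values up to 0.106. Ddit3 kept it under 12, and lost it by DESeq2 without BKS control replicate 1, Db replicate 1 or Db replicate 2 (adjusted p = 0.0670, 0.0645 and 0.101).

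Asns rose least, from 18.3 and 17.8 CPM in BKS control to 26.0 and 25.6 CPM in Db (0.51 ± 0.21, edgeR adjusted p = 0.0477). The groups were tight and did not overlap, but the call was lost under DESeq2 (adjusted p = 0.0862), limma-voom (adjusted p = 0.0519) and without any 1 library (edgeR adjusted p = 0.0597 to 0.148). Over 15 alternatives the adjusted p ran from 0.0228 to 0.405. Chac1 read 29.0 and 23.0 CPM in Db and 4.28 and 15.15 CPM in BKS control. Both Db values were above both controls, yet with controls 3.54 times apart the change of 1.45 ± 0.62 did not pass (edgeR adjusted p = 0.139). It passed under 9 of 15 alternatives, among them limma-voom (adjusted p = 0.0475) and edgeR without any 1 library, with a change of 0.81 without BKS control replicate 1 and 2.63 without BKS control replicate 2. The adjusted p ran from 1.56e-15 to 0.55. Atf4 read 205 and 198 CPM in Db and 129 and 186 CPM in BKS control (0.36 ± 0.21, edgeR adjusted p = 0.161). Without BKS control replicate 2 it was 0.68 and passed (edgeR adjusted p = 0.00414), in a range from 0.00414 to 0.735.

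Atf5 read 141 and 109.7 CPM in Db and 306 and 182.5 CPM in BKS control (-0.97 ± 0.23, edgeR adjusted p = 0.00133). Without Db replicate 2 it was -0.78 and did not pass (edgeR adjusted p = 0.0517), in a range from 1.79e-09 to 0.183. Cebpb read 28.0 and 25.45 CPM in Db and 37.9 and 60.2 CPM in BKS control (-0.87 ± 0.22, edgeR adjusted p = 0.0019). Without BKS control replicate 2 it was -0.47 and did not pass (edgeR adjusted p = 0.0697), in a range from 1.12e-06 to 0.253. Both genes were lower in each Db library than in either control. Fgf21 had 4 and 3 counts in Db and 0 and 0 in BKS control, too few for a test.

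The amino acid genes rose together in Db islets. Of 18 tested, 15 rose and 0 fell, with a median of 0.96. Pycr1 went from 14.8 and 15.5 CPM to 118 and 137 CPM (3.07 ± 0.22, edgeR adjusted p = 1.32e-11). The serine synthesis genes Phgdh (2.45 ± 0.28) and Psph (2.29 ± 0.35) and the mitochondrial folate gene Aldh1l2 (2.09 ± 0.29) followed, at edgeR adjusted p-values of 4.46e-08 to 4.63e-06. Of 12 aminoacyl-tRNA synthetase genes, 5 rose, including Tars1 (1.07 ± 0.21), Wars1 (0.89 ± 0.20), Aars1 (0.76 ± 0.20) and Sars1 (0.71 ± 0.22), and Gars1 fell (-1.04 ± 0.21), at edgeR adjusted p-values of 0.000124 to 0.00989. Of 13 other targets, 7 rose and 2 fell. Those that rose included Stc2, the translation repressor gene Eif4ebp1 (1.68 ± 0.25), Pck2 (1.54 ± 0.20) and Sesn2 (1.28 ± 0.21), at edgeR adjusted p-values of 1.85e-07 to 1.76e-05. Those that fell were Nars2 (-1.44 ± 0.32) and Vegfa (-0.75 ± 0.20), at edgeR adjusted p-values of 0.000504 and 0.00361. Stc2 was thus called higher in both islet comparisons, here from 3 and 1 counts in BKS control, at or under the floor, to 110 and 91 in Db.

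Of the eIF2 kinases, Eif2ak3, which encodes PERK, the kinase that senses misfolded protein in the endoplasmic reticulum, rose in Db islets. It read 46.1 and 49.9 CPM in Db and 15.8 and 25.4 CPM in BKS control (1.23 ± 0.22, edgeR adjusted p = 6.83e-05). Eif2ak1, Eif2ak2 and Eif2ak4 changed by -0.18, -0.26 and 0.14 and did not pass (edgeR adjusted p = 0.524 to 0.727). Of all genes tested in this comparison, 24.3% were called higher and 23.9% lower. Over the 16 genes of the eIF2 machinery 4 rose, near the share of all genes, and 1 fell. Beside Eif2ak3 these were Eif2b4 (0.94 ± 0.20), Dele1, which relays mitochondrial stress to an eIF2 kinase (0.72 ± 0.21), and Eif2b2 (0.50 ± 0.20), with Eif2b3 lower (-1.43 ± 0.35), at edgeR adjusted p-values of 0.000457 to 0.0425. In the ATF6 and XBP1 branch 10 of 16 rose and 0 fell, among them Derl3 (2.502 ± 0.23), Creld2 (1.89 ± 0.21), Hyou1 (1.66 ± 0.24) and Pdia6 (1.603 ± 0.22), at edgeR adjusted p-values of 8.75e-10 to 2.12e-06.

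The counts of this paragraph stand beside 23.9% of all genes called lower and 24.3% higher. Of the bZIP partners 4 of 9 were lower and 0 higher. These were the stress-induced factor Atf3 (-2.83 ± 0.66), Jun (-1.54 ± 0.23), Cebpa (-1.12 ± 0.28) and Cebpg (-0.59 ± 0.22), at edgeR adjusted p-values of 5.54e-06 to 0.032. Of 6 tested genes tied to CHOP, Ero1b (-1.89 ± 0.22) and the death gene Bbc3 (-1.69 ± 0.22) fell and 0 rose (edgeR adjusted p = 9.32e-08 and 4.13e-07). Immediate early genes, among them Jun, were lower for 10 of 16 and summed to 0.102% to 0.111% of counts in Db against 0.196% to 0.275% in BKS control. BKS control replicate 2 held the highest value of the 4 libraries for 8 of the 9 bZIP genes and 15 of the 16 immediate early genes. Without it 3 of 9 and 9 of 16 were lower, with medians of -0.34 and -0.96 in place of -0.66 and -1.55. The part of immediate early genes in the lower Cebpb was not tested. Acinar markers were higher for 8 of 10 tested, at the sums given above, and their part in the ATF6 and XBP1 list was not tested.

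**Figure D4:**
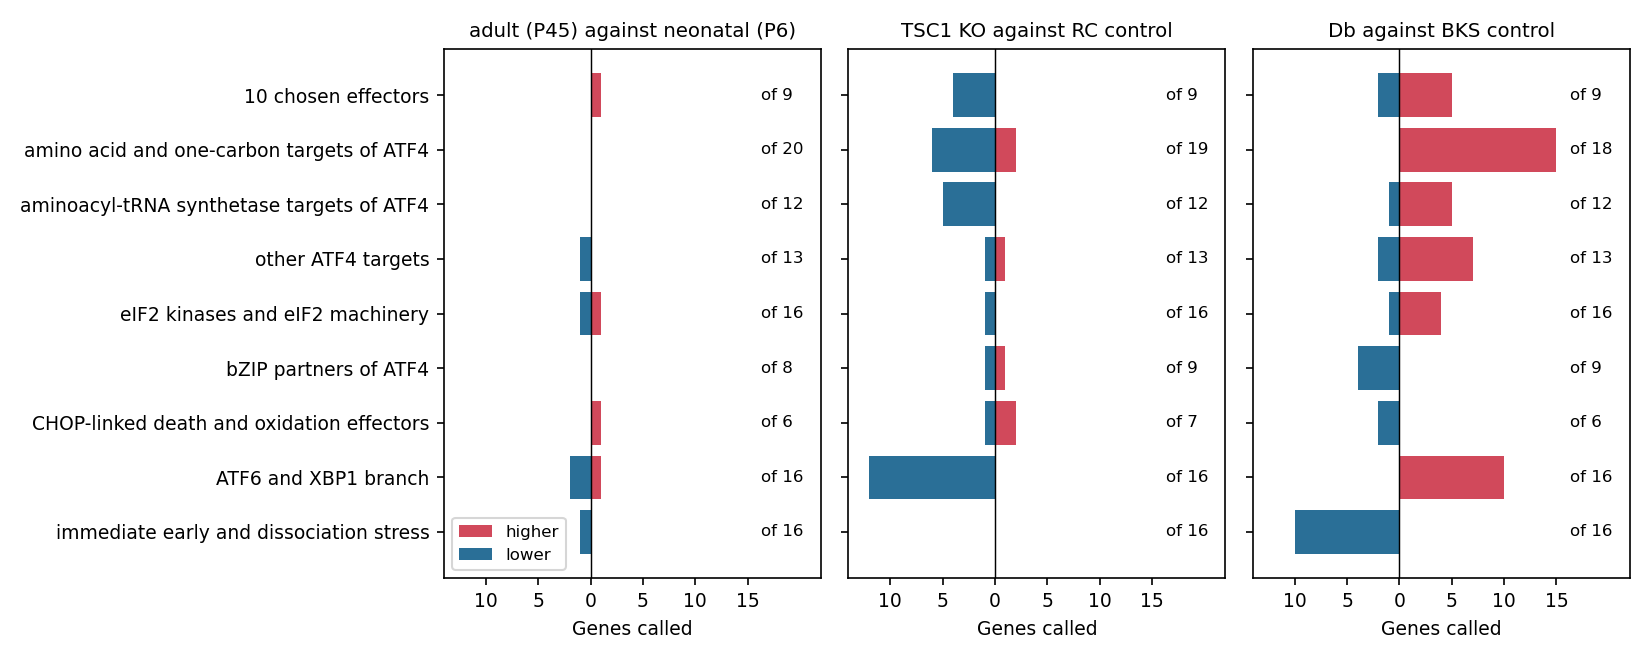
Number of genes called higher (red, to the right) and lower (blue, to the left) by edgeR at an adjusted p under 0.05 in each gene list and comparison, with the number tested at the right edge of each panel. The amino acid list shows 15 of 18 higher in Db islets and 6 of 19 lower in TSC1 KO islets.

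The islet comparisons share no control libraries, and a joint edgeR fit of their 8 libraries tested whether the TSC1 KO change and the Db change of a gene differ. The tables also differ in age and in the prefix of their labels, which cannot be told apart from the genotype in this contrast. For 6 of 9 members the TSC1 KO change was the lower one, beside 31.8% of 15702 genes called and 18.6% called in that direction. Chac1 differed by -4.47 ± 0.78, Ddit3 by -3.39 ± 0.57, Nupr1 by -2.38 ± 0.43, Asns by -2.13 ± 0.28, Ppp1r15a by -1.88 ± 0.44 and Atf4 by -1.30 ± 0.33. Chac1 differed by -3.81 without BKS control replicate 1 and by -5.66 without BKS control replicate 2, and Ddit3 by -2.68 without RC control replicate 1. The edgeR adjusted p-values of the 6, in the order given, were 0.00395, 0.00274, 0.00174, 0.000213, 0.00852 and 0.0106. Atf4 thus differed between the comparisons although its change passed in neither. Atf5, lower in both, differed by -0.13 ± 0.40 (edgeR adjusted p = 0.831), with a 95% interval from -0.99 to 0.73. Trib3 (-0.86 ± 0.50) and Cebpb (1.62 ± 0.79) did not pass (edgeR adjusted p = 0.207 and 0.168).

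In the same fit 12 of 20 amino acid genes and 7 of 12 tRNA synthetase genes were lower in TSC1 KO relative to Db, with medians of -1.90 and -1.38 and 0 higher in either list. Pycr1 differed by -5.56 ± 0.36, the largest difference among the 20. In the ATF6 and XBP1 branch 13 of 16 were lower and 0 higher, with Sdf2l1 at -4.99 ± 0.34. Eif2ak3 differed by -0.98 ± 0.35 (edgeR adjusted p = 0.0498). Among bZIP partners, Jun (2.21 ± 0.43), Nfe2l2 (2.08 ± 0.32) and Cebpa (1.72 ± 0.44) were higher in TSC1 KO relative to Db. The edgeR adjusted p-values of these 5 genes other than Eif2ak3 lay between 4.35e-06 and 0.0102. Immediate early genes were higher for 9 of 16, with a median of 2.04.

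**Figure D5:**
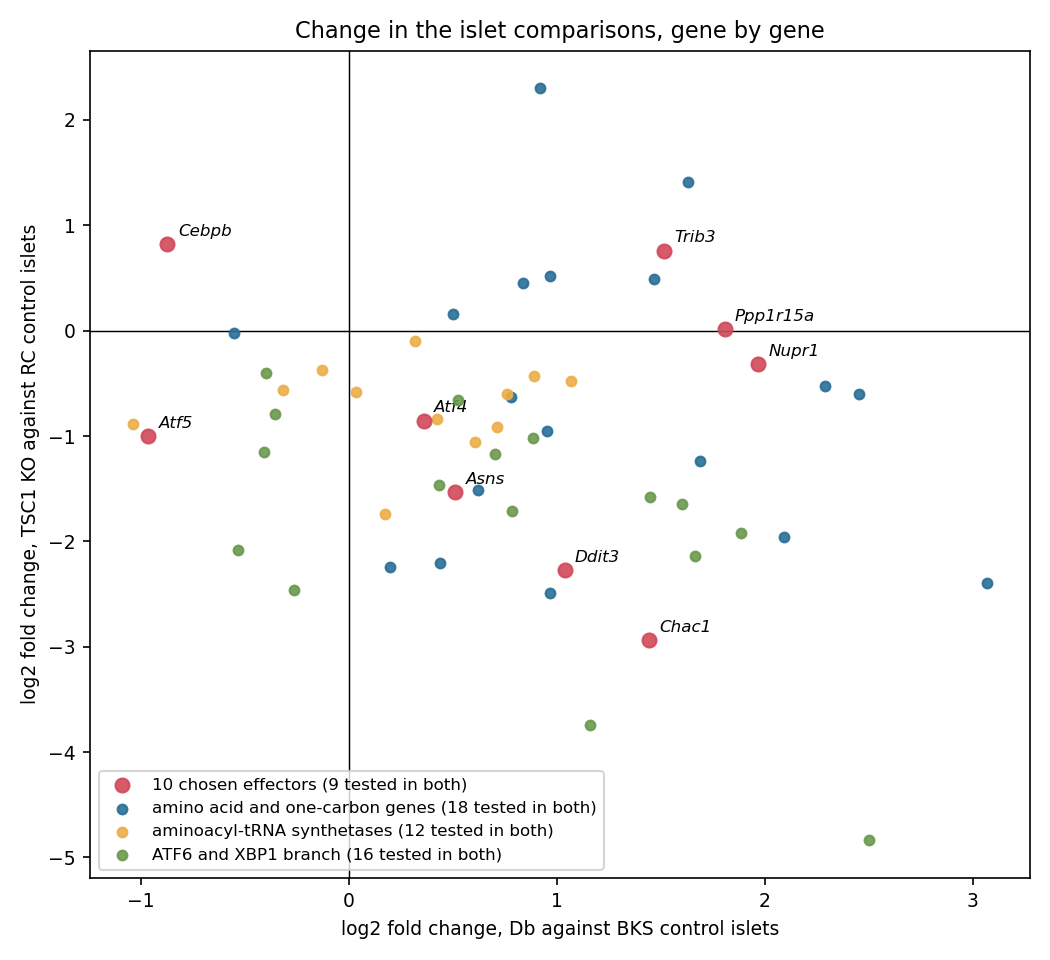
Log2 fold change of Db against BKS control islets (horizontal) and of TSC1 KO against RC control islets (vertical) for the genes of 4 lists tested in both; each point is 1 gene. Chac1, Ddit3 and Asns lie to the lower right, Trib3 to the upper right and Atf5 to the lower left.

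Across the 14 libraries the genes did not share 1 profile. Nearness was the root mean square difference in log2(CPM + 1) per library, each gene centred on its table mean, over 12089 genes with a mean of at least 1 CPM in every table. It is a description over libraries that share tables, depth and make-up. Asns was nearest to Tmem199 (0.195) and then to the synthetase genes Yars1 (0.208) and Cars1 (0.214). Ddit3 was nearest to Hspa5 (0.406), the main chaperone of the endoplasmic reticulum, then to Rem2 (0.440) and H2-K2 (0.442). Chac1 had Rspo4 (0.553), Tmem63c (0.574) and Vil1 (0.578) as neighbours, with Asns 8th at 0.698. Cebpb was nearest to Mcl1 (0.300), a survival gene, Socs3 (0.340), an immediate early gene of the list used here, and Grasp (0.344).

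For the other genes the 3 nearest neighbours lay outside these lists. Atf4 was nearest to Rbm14 (0.160), Dda1 (0.161) and Clk3 (0.167), the smallest values of any member. Atf5 lay near Bfar (0.281), Rad52 (0.283) and Inpp5j (0.286). Ppp1r15a lay near Gstp1 (0.234), Ucp2 (0.256) and Reep4 (0.258). Nupr1 lay near Ctnnd2 (0.442), Arhgap6 (0.447) and Ntpcr (0.480), and Trib3 near Cops9 (0.411), Tacc2 (0.474) and Slc39a1-ps (0.476). Eif4ebp1, of the other ATF4 targets, was 5th for Trib3 at 0.506.

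Exons of 4 members overlap a gene on the other strand in the GENCODE annotation used here, and these sources do not state the strand setting of the counting, so their counts are uncertain to that extent. The largest overlaps were 312 bases of Cebpb with Tmem189, 82 of Atf5 with Il4i1, 68 of Ddit3 with Mars (listed above as Mars1) and 12 of Ppp1r15a with Tulp2.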

How the data were processed

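The authors deposited raw gene counts, whole numbers of reads per Ensembl gene with no normalization, in 3 tables for 14 libraries. Trizol extraction and the SMARTer Stranded kit preceded sequencing, per the labels' protocols. The trimmer cutadapt 1.13, the aligner GSNAP 2016-08-10, the counter HTSeq 0.7.1 and also DESeq2 1.16.0 appear in the list of tools, per the submitters' processing notes, which name NCBIM37 and mm9 as builds without saying what each served. Titles gave the groups. The number 3 heads 2 columns of neonatal libraries, and these are called replicates 3a and 3b.

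Symbols matched 32620 of 37310 identifiers, and all 194 listed genes matched. Each table was fitted on its own with edgeR 4.0.16 in R 4.3.3 (filterByExpr with minimum count 10 and minimum total 15, TMM, robust quasi-likelihood F test, Benjamini-Hochberg over all genes tested, threshold 0.05). The joint islet fit had a term for the table and an interaction. The fit was also run on simulated counts with the same dispersion for every gene and no shift in make-up. That run was checked for the sign and median error of known changes, and cannot speak for libraries that differ as these do. Total gene counts ranged from 3507929 to 17688772. Replicates differed by 10.03 to 81.32 in chi-square per degree of freedom, so none looked like 1 library deposited again. Rows that name no gene stayed out of library sizes: in 2 tables gene rows held 24.52% to 44.27% of reads, and the table with TSC1 KO has no such rows. Alternatives were DESeq2 1.42.0, limma-voom (limma 3.58.1), other scalings, no filter, leaving out each library and the replicate number as a block. Levels per kilobase use the longest GENCODE M21 transcript. Promoter windows are from RefSeq, GRCm38.p6, and are not of the builds named for the counts.

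The members and the lists were chosen with earlier results of these data known. The text names all members, up to 4 called genes of each list in each direction and comparison by size of change, the 4 eIF2 kinases and up to 3 nearest profiles a member. Genes named for their level in neonatal replicate 3a were chosen after their values were seen. There were no molecular identifiers, so counts are of reads and not of molecules.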

Additional observations from a re-analysis of the deposited data

Results flagged for a closer look

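The TSC1 KO change and the Db change of 6 genes differed in the joint edgeR test over the 8 islet libraries, and are listed as differences between the comparisons. The difference, TSC1 KO change minus Db change on the log2 scale, was -4.47 for Chac1, -3.39 for Ddit3, -2.38 for Nupr1, -2.13 for Asns, -1.88 for Ppp1r15a and -1.30 for Atf4. For Chac1, Ddit3, Asns and Atf4, 2 of 2 knockout libraries lay below and 2 of 2 Db libraries above the controls of their table. Of all genes tested, 34.0% lay below without overlap in TSC1 KO and 37.2% lay above without overlap in Db. The share of genes with both was not computed. Atf4 passed the test in neither comparison (edgeR adjusted p = 0.0683 and 0.161) and Chac1 did not pass in Db (edgeR adjusted p = 0.139). For Ppp1r15a and Nupr1 the Db libraries were above their controls, while the TSC1 KO and RC control ranges overlapped. The insulin genes took 1.05% and 0.969% of counts in TSC1 KO, 24.5% and 27.9% in RC control, 48.3% and 45.5% in Db and 61.0% and 70.0% in BKS control, and the part of this in the differences was not tested. Age, label prefix and genotype cannot be told apart between the tables.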

How the results depend on the processing

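All 6 members called in the TSC1 KO minus Db difference were called under each of 23 alternatives, and the count stayed at 6 to 7. In adult against neonatal β-cells the count of 1 became 3 with no filter on low counts, 2 with DESeq2 and 0 with limma-voom, and 0 to 3 with 1 library left out. It stayed at 1 with library size as the scaling, but as Ddit3 lower and not Nupr1 higher. In TSC1 KO islets it was 0 to 5 with 1 library left out by edgeR or, added after seeing the data, DESeq2. In Db islets it was 3 to 7, and 4 by DESeq2 without BKS control replicate 1. With 1 library left in a group, that library is assumed to vary like the others.

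Changes near 0 turned sign, with cause not tested. In β-cells limma-voom gave 1.92 for Trib3, 0.85 for Chac1 and 0.14 for Asns. Without neonatal replicate 3a these were 3.30, 1.89 and 0.58. Without adult replicate 3, Trib3 was 0.05 and Asns 0.05, without adult replicate 2 Chac1 was 0.03, and without neonatal replicate 1 Ppp1r15a was 0.22. With 1 library left out the changes ran from -0.71 to 3.30 for Trib3, -0.52 to 1.89 for Chac1, -0.26 to 0.58 for Asns and -0.52 to 0.22 for Ppp1r15a. In TSC1 KO islets Ppp1r15a was -0.24 with library size as the scaling, -0.00194 without mitochondrially encoded and insulin genes, -0.030 with no filter, -0.39 and -0.41 (edgeR and DESeq2) without RC control replicate 2 and -0.07 and -0.032 without TSC1 KO replicate 2, in a range from -0.41 to 0.56 with 1 library left out. Nupr1 was 0.015 and 0.00785 without RC control replicate 1, in a range from -0.60 (DESeq2 -0.61) to 0.015. The Atf5 difference between islet comparisons was 0.035 (DESeq2) without RC control replicate 2, 0.04 and 0.16 without TSC1 KO replicate 1, 0.18 and 0.23 without BKS control replicate 2, and 0.05 and 0.13 without Db replicate 1, in a range from -0.54 to 0.23.

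Library size as the scaling moved the median of all genes to -0.19, -0.25 and 0.29 in the 3 comparisons and to -0.47 in the joint fit. With the replicate number as a block, 3 members were called in TSC1 KO, 7 in Db islets and 7 in the joint fit. Over genes, deviations of libraries with the same number correlated at -0.05 and -0.04 in the TSC1 KO and Db tables. From 2 libraries a group this cannot show whether libraries of the same number shared a preparation, and the labels give no batch. No paired analysis was possible in β-cells because 2 columns carry the same number. Without neonatal replicate 3a immediate early genes were lower in adult cells for 7 of 16, not 1. In the ATF6 and XBP1 list 8 were lower in TSC1 KO islets under the block and 16 without RC control replicate 1. Depth limits Trib3 and Chac1 in TSC1 KO (11 to 37 counts), Derl3 in TSC1 KO, Stc2 in both controls and Fgf21 in every library.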
